A study of Mus musculus with 22 samples.

Results

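The effect of removing the non-β endocrine cells that was common to fasted and refed mice was described in sorted pancreatic β-cells. All 22 libraries of the series entered the comparison, 12 from mice given diphtheria toxin (DT) and 10 from controls, with feeding state as a factor. Every mouse, controls included, was a male of mixed background aged 3 months that carried GluDTR and was heterozygous for SstDTR and PpyDTR, alleles that place the toxin receptor in α-, δ- and γ-cells. β-cells were taken by flow cytometry 1 month after ablation, and what the control mice were given is not stated. The groups were fasted control (n = 5, mice 1 to 5) and fasted DT (n = 6, mice 6 to 11) after 8 h without food, and refed control (n = 5, mice 12, 18, 19, 21 and 22) and refed DT (n = 6, mice 13 to 17 and 20) after the same fast and 2 h of refeeding. Of 52327 genes in the count table, 14064 passed the filter on low counts and were tested. 25 of them differed between DT and control mice over both states at an adjusted p under 0.05: 12 were higher in DT mice (0.0853% of the genes tested) and 13 were lower (0.0924%).

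Diphtheria toxin enters only cells that carry its receptor and stops protein synthesis there by modifying the elongation factor EEF2. Mouse cells bind the toxin poorly, so an inserted receptor decides which cells die. In an intact islet, α-cells release glucagon, which raises cyclic AMP in β-cells and supports insulin release, δ-cells release somatostatin, which lowers cyclic AMP and restrains it, and γ-cells release pancreatic polypeptide. After the ablation β-cells lack these neighbours as far as the ablation is complete.

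Total counts per library ran from 16584117 to 24988880. The insulin genes Ins1 and Ins2 took 40.3% to 51.1% of the counts in 21 mice and 69.4% in refed DT mouse 13, whose TMM factor was 0.566. Mitochondrially encoded genes took the highest shares in refed DT mice 13 (1.36%) and 20 (1.59%), against 0.539% to 1.14% elsewhere. Mouse 20 also had the highest summed level of immune-cell markers (571 CPM, reads scaled by library size). Fasted DT mouse 7 (440 CPM) and fasted control mouse 1 (241 CPM) came next. Of 12 immune-cell markers tested, 11 were higher in DT mice (median log2 fold change 1.45) and none was called. That median was 0.18 without mice 13 and 20, with 10 of 13 higher. Without mice 13 and 20, 40 genes were called, 20 of the 25 among them. Acinar markers varied widely in every group, and their sums overlapped: 147 to 15686 CPM in fasted control, 126 to 22826 in fasted DT, 1566 to 25002 in refed control and 86.5 to 43471 in refed DT mice. With that sum as a covariate 32 genes were called, 24 of the 25 among them. In the fasted mice the numbers 1 to 5 are all control and 6 to 11 all DT, so anything that followed the order of mice cannot be told apart from treatment there. Nothing in the labels says that mice came from separate litters or days.

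The common effect was small in most genes. Of the 25 called genes, 20 changed by less than 2-fold, and the smallest called change was 0.30 on the log2 scale. All 25 moved in the same direction in fasted and in refed mice, with an unadjusted p under 0.05 in each state. The fit over both states, on the same mice, favours such genes. This agreement and the lack of overlap among the 25 are therefore no separate support. DT and control mice did not overlap in either state for 6 of them: Sst, Gcg, Enpp5 and Abhd3 were lower in every DT mouse, and Srsf7 and Dlk1 were higher. Another 18 were without overlap in 1 state, and 1, Smim10l1, overlapped in both. Of the 14064 genes tested, 264 did not overlap in fasted mice and 139 did not in refed mice, in either direction. Among all genes tested, 3 were higher without overlap in both states (0.0213%) and 5 were lower (0.0356%). The other two were Dguok, a mitochondrial deoxyguanosine kinase, at a log2 difference of 0.22 ± 0.06 (SE, adjusted p = 0.162), and Tgoln1, a protein of the trans-Golgi network, at -0.26 ± 0.08 (adjusted p = 0.173), both named after their values were seen. The difference between the refed and the fasted effect had an unadjusted p under 0.05 for 3 of the 25 (Slc35f1, Atg16l2 and Sst), and the smallest adjusted p of that difference was 0.590. The number called depended on single mice: leaving out 1 mouse at a time gave between 2 calls (without refed control mouse 22) and 37 (without refed DT mouse 13).

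**Figure D1:**
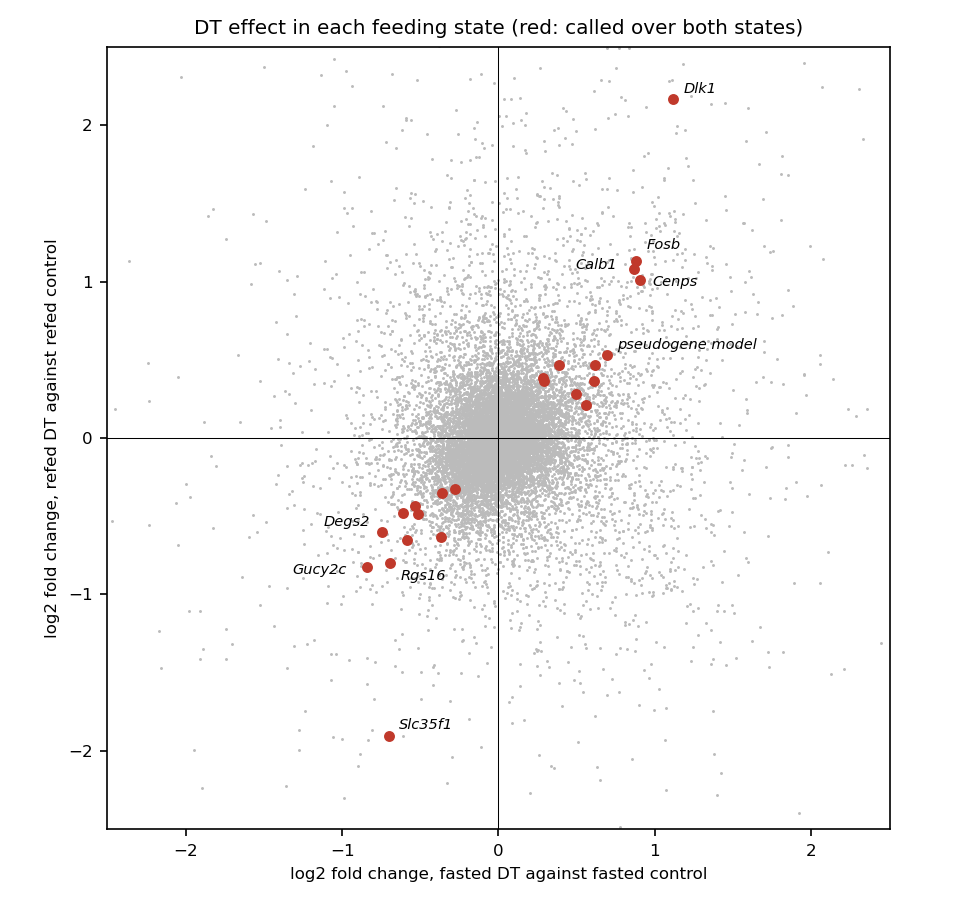
Log2 fold change of DT against control in refed mice (vertical) against that in fasted mice (horizontal), 1 point per gene tested, with 23 called genes in red. Both axes end at 2.5, so Sst, Gcg and other genes among 121 with a larger change are not drawn. The called genes lie where both effects are below 0 or both are above 0, which their choice over both states favours.

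Fasted and refed comparisons share no mouse, but their p-values come from 1 fit and share its estimate of the spread. An unadjusted p under 0.05 was reached by 1172 genes in fasted mice and 1410 in refed mice, and by 194 in both. Of those 194, 74 were higher in DT mice in both states (0.526% of genes tested), 79 were lower in both (0.562%) and 41 moved in opposite directions. The 153 genes with the same direction were 13.1% of the fasted list and 10.9% of the refed list. At an unadjusted p under 0.01 in each state, 25 genes had the same direction and 3 the opposite one. Without refed DT mice 13 and 20 the counts at 0.05 were 188 in the same and 114 in opposite directions. Over all genes tested, 56.0% had the same sign in both states.

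Promoters from the RefSeq table for GRCm38.p6 (250 bases before the start site to 50 after it) were found for 18 of the 25 called genes. They were searched on both strands for the cyclic AMP response element (CRE) TGACGTCA, its core TGACG, the AP-1 element TGANTCA, the E-box CACGTG, the hypoxia core ACGTG and the TATA box TATAAA; the CRE contains its core and the E-box contains the hypoxia core. A called gene was counted if any of its promoters matched, whereas the share over all promoters counts each promoter singly. A full CRE was in 2 of the 18, Sst and Atg16l2, and in 1.79% of the 32851 promoters of the table. Its core was in 7 (20.8% of all promoters), AP-1 in 1 (7.81%), the E-box in 3 (7.15%), the hypoxia core in 5 (19.6%) and TATA in 2 (13.6%). The promoters of Sst and Atg16l2 are shown because they hold the full element, that of Fosb because it holds the core alone, and that of Srsf7 because it is the leading higher gene and holds none of the motifs. Capitals mark the CRE in Sst (chr16:23890795-23891094, starting 48 bases before the start site) and in Atg16l2 (chr7:101302039-101302338, 18 before), and the core in Fosb (chr7:19309996-19310295, 60 before). The Srsf7 promoter lies at chr17:80207256-80207555, and all 4 are on the minus strand. A match describes the letters and is no evidence of binding.
Sst: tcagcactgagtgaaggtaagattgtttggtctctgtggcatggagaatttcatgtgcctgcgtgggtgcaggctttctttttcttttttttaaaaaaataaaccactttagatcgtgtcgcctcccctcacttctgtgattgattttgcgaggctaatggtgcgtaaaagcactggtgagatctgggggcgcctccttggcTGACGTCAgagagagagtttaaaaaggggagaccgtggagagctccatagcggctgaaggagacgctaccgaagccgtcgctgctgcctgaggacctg
Atg16l2: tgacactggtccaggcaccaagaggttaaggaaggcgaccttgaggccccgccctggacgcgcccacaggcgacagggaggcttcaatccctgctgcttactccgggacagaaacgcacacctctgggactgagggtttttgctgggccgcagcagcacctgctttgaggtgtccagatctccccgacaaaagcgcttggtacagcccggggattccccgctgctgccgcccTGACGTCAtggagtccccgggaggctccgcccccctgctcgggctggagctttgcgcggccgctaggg
Fosb: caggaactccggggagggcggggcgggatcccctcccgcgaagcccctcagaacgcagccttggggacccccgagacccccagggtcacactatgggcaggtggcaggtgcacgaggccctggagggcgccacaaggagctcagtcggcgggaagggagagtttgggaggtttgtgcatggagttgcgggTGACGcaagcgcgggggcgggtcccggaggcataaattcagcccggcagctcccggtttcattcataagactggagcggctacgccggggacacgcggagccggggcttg
Srsf7: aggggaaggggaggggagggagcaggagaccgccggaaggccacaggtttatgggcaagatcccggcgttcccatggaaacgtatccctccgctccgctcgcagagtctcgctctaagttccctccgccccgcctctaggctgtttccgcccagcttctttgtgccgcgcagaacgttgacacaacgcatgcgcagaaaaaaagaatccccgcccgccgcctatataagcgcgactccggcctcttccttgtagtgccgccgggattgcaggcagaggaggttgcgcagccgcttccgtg

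Sst and Gcg, transcripts of the ablated cells' hormones, had the largest fitted fold changes among the 25 called genes. Sst, which encodes somatostatin (chr16:23889573-23891342), stood at 43.4, 42.7, 30.3, 28.5 and 13.4 CPM in the fasted control mice and from 0 to 4.71 (median 0.0475) in fasted DT mice. In refed mice Sst was at 29.8, 47.2, 71.5, 55.99 and 58.7 CPM in controls and from 0 to 0.494 (median 0.0496) in DT mice. Every DT mouse was below every control mouse, and 2 fasted and 3 refed DT mice had no Sst read, where a count of 0 allows up to 0.12 to 0.274 CPM (3 counts per library, counting error only). The fitted log2 fold change was -6.57 ± 0.78 (SE, adjusted p = 0.000448), a size that depends on the prior count at such low levels. Gcg, which encodes proglucagon (chr2:62474530-62483653), was at 241, 1.28, 9.09, 109 and 77.4 CPM in fasted controls and from 0.0529 to 0.833 (median 0.146) in fasted DT mice. In refed mice Gcg was at 166, 100.1, 172, 55.99 and 158 CPM in controls and from 0 to 25.96 (median 0.461) in DT mice, where the highest value was that of mouse 13. Fasted control mouse 2, at the lowest Gcg among controls, was still above all 6 fasted DT mice. The fitted log2 fold change of Gcg was -6.32 ± 1.04 (adjusted p = 0.0194), and the call was lost without refed control mouse 22 (adjusted p = 0.0533). Leaving out 1 mouse moved the log2 fold change of Sst to -8.76 (without fasted DT mouse 8) and that of Gcg to -8.51 (without refed DT mouse 13).

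On the log2(CPM + 1) scale, the mean within-state difference was -5.30 for Gcg and -4.99 for Sst. Both had a two-sided exact permutation p of 4.69e-06 over 213444 splits of the mice within states, the smallest these splits can give (7.03e-06 after adjustment over 3 genes). Ppy, which encodes pancreatic polypeptide, gave -1.31 (exact permutation p = 0.0184, the same after adjustment), with a difference of -1.72 in fasted and -0.89 in refed mice on that scale. The refed difference was -0.32 without refed control mouse 19 and -1.49 without refed control mouse 12, and the exact permutation p ran from 0.00156 to 0.0494 with 1 mouse left out. Ppy overlapped between groups: 46.7, 23.9, 5.41, 10.6 and 6.87 CPM in fasted controls and from 1.04 to 10.6 (median 3.45) in fasted DT mice, then 3.89, 14.7, 126, 35.02 and 30.95 in refed controls and from 3.46 to 32.6 (median 13.5) in refed DT mice. Across all genes Ppy did not pass the adjusted threshold (log2 fold change -1.81 ± 0.52, adjusted p = 0.166). Of 10 alternative settings only DESeq2 called Ppy (adjusted p = 0.0405), and none of the 22 fits with 1 mouse left out did. Whether these reads come from other cells in the sort or from β-cells was not tested, and in sorted bulk libraries fewer cells of a type cannot be told apart from less RNA per cell. Of the other α-cell markers, Irx1 had no read in any DT mouse or in any fasted control mouse, while Ttr, Tm4sf4 and Slc7a2 are also expressed by β-cells, and the summed α-cell marker level overlapped between groups (911 to 1464 CPM in fasted control, 861 to 1318 in fasted DT, 804 to 1206 in refed control and 748 to 1192 in refed DT mice). Pyy, which encodes peptide YY, had a log2 fold change of -1.29 ± 0.42 (adjusted p = 0.223). Ins1 (0.27 ± 0.18, adjusted p = 0.606) and Ins2 (0.09 ± 0.15, adjusted p = 0.878) did not pass.

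**Figure D2:**
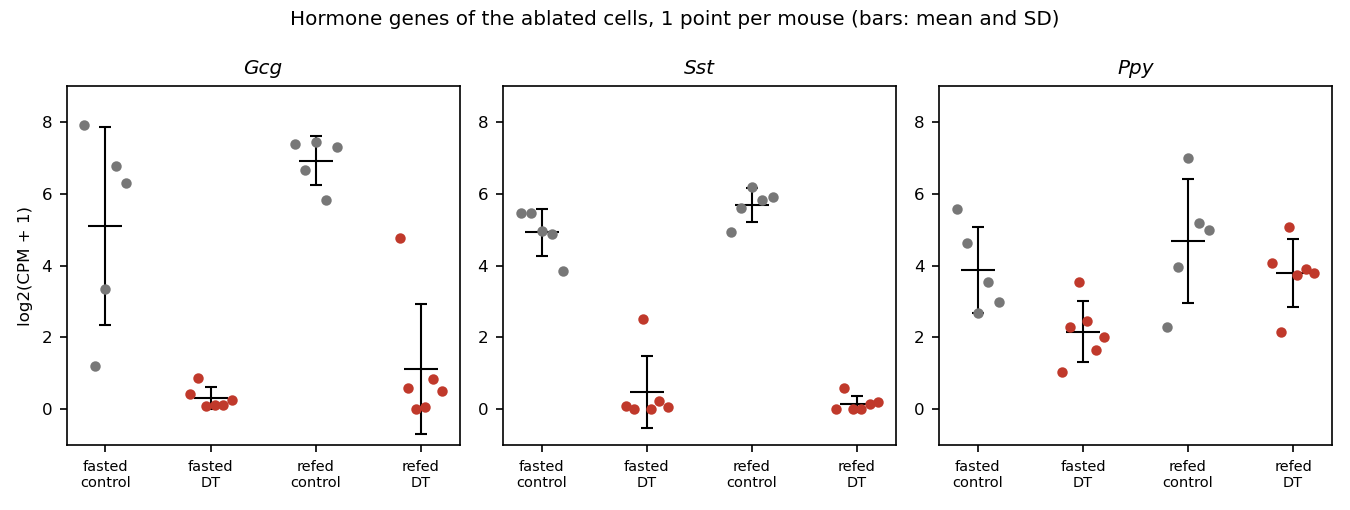
Level of Gcg, Sst and Ppy as log2(CPM + 1) in each mouse of the 4 groups, with group mean and SD. Gcg and Sst do not overlap between DT and control mice in either state, with refed DT mouse 13 highest for Gcg (26.0 CPM) and fasted DT mouse 8 highest for Sst (4.71 CPM) among DT mice, whereas Ppy overlaps in both states.

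Among the 12 higher genes, Srsf7, Ddx39b and Hnrnph1 encode proteins of RNA processing. Srsf7, an SR protein that binds exons and directs splicing and RNA export (chr17:80200080-80207369), was at 109, 90.4, 127, 114 and 82.7 CPM in fasted controls and from 130.3 to 209 (median 158) in fasted DT mice. After refeeding Srsf7 was at 137, 136, 109.9, 133 and 113 CPM in controls and from 160.3 to 192 (median 171) in DT mice. No DT mouse fell within the control range in either state. The log2 fold change was 0.54 ± 0.09 (SE, adjusted p = 0.0150; 0.62 in fasted and 0.47 in refed mice), and Srsf7 was called with each of the 22 mice left out. Ddx39b, the helicase that loads export factors on spliced mRNA (chr17:35241746-35253707), was at 53.4, 56.7, 60.4, 48.5 and 58.6 CPM in fasted controls and from 56.4 to 81.4 (median 68.6) in fasted DT mice. In refed mice Ddx39b was at 54.2, 52.2, 59.7, 58.2 and 54.1 CPM in controls and from 67.9 to 76.4 (median 73.2) in DT mice. The refed groups were fully apart, and in the fasted state mouse 9 lay among the controls. Ddx39b had a log2 fold change of 0.33 ± 0.06 (adjusted p = 0.0295), called in 15 of the 22 fits with a mouse left out. Hnrnph1, which binds G-rich RNA and regulates splicing (chr11:50375257-50386528), was at 75.4, 81.6, 78.6, 76.996 and 71.4 CPM in fasted controls and from 91.2 to 138 (median 106) in fasted DT mice, and at 79.96, 92.2, 79.1, 99.97 and 94.2 in refed controls and from 90.9 to 134 (median 107) in refed DT mice. The fasted groups were apart and the refed groups overlapped. Hnrnph1 had a log2 fold change of 0.39 ± 0.08 (adjusted p = 0.0386), called in 5 of the 22.

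The lists these genes belong to had most members above 0 and few calls. For reference, 905 genes were higher at an unadjusted p under 0.05 (6.43% of genes tested) and 702 were lower (4.99%), the median log2 fold change of all genes was 0.01, and 52.0% were above 0. Of 24 SR splicing factors and their kinases, 20 were above 0 (median 0.24), 1 was called and 10 had an unadjusted p under 0.05, all higher. Tra2a was at 0.46 ± 0.12 (adjusted p = 0.122), Tra2b, its paralog in exon inclusion, at 0.34 ± 0.09 (0.136) and Srsf11 at 0.28 ± 0.08 (0.172). Of 33 genes of U1 and splice site choice, 26 were above 0 (median 0.22), none was called and 12 had an unadjusted p under 0.05, all higher. Among them Luc7l, a U1 partner, was at 0.47 ± 0.11 (0.79 in fasted and 0.16 in refed mice, adjusted p = 0.0971). Tia1, which aids weak splice sites, was at 0.59 ± 0.14 (adjusted p = 0.0971). Snrnp70, the U1-70K protein, was at 0.54 ± 0.15 (0.135) and Rbm5 at 0.35 ± 0.09 (0.119). Mean CPM of Tia1, control then DT, was 24.9 and 44.3 in fasted and 22.9 and 29.2 in refed mice. In the same order Snrnp70 was at 49.7 and 88.6, then 58.8 and 70.4. Rbm5 was at 55.9 and 85.3, then 77.6 and 82.7. Of 20 hnRNP genes, 15 were above 0 (median 0.13), 1 was called and 3 had an unadjusted p under 0.05, all higher, Hnrnpm at 0.26 ± 0.08 and Hnrnph3 at 0.35 ± 0.12 beside Hnrnph1. Of 27 genes of mRNA export and the exon junction, 24 were above 0 (median 0.14), 1 was called and 8 had an unadjusted p under 0.05, all higher, with the export receptor gene Nxf1 at 0.32 ± 0.09, Rnps1 at 0.33 ± 0.12 and Thoc1 at 0.30 ± 0.11. In each of these 4 lists the median was higher in fasted than in refed mice (0.32 and 0.12 for the SR list, 0.20 and 0.09 for U1, 0.10 and 0.07 for hnRNP, 0.19 and 0.09 for export); the difference between states was not tested. At an unadjusted p under 0.05 in each state, 2 SR, 0 U1, 1 hnRNP and 1 export members were higher in both states. Among all genes tested that share was 0.526%. Without refed DT mice 13 and 20 the unadjusted counts of the common effect were 10, 11, 5 and 7 in the same order of lists, all higher. Calls in that fit numbered 4, 0, 2 and 1. The median of the U1 list was then 0.13. The residuals of Srsf7, Ddx39b and Hnrnph1 within groups gave no correlation that passed over 22 mice in 3 pairs: Pearson's r ran from -0.155 to 0.418 and Spearman's rho from -0.286 to 0.191, the smallest permutation p was 0.0527 (adjusted 0.158), and that pair's r was -0.021 without the 2 farthest mice.

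**Figure D3:**
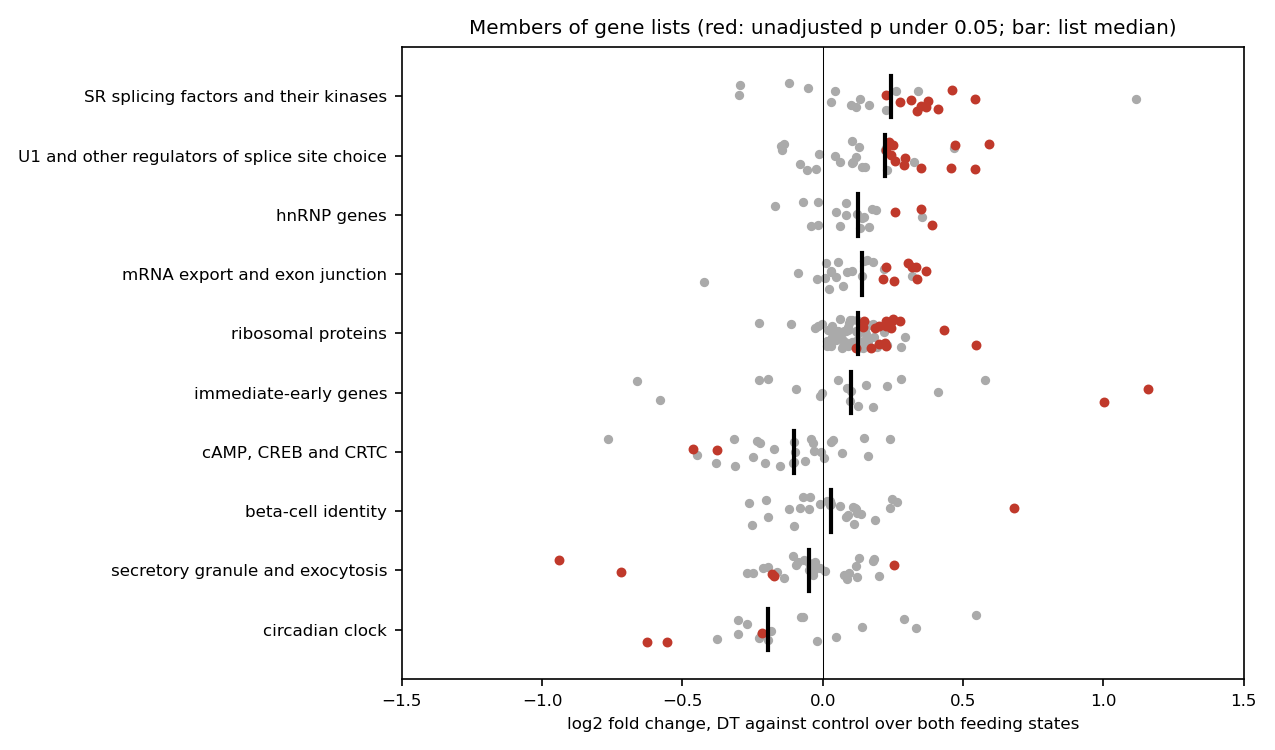
Log2 fold change of DT against control over both feeding states (horizontal) for every tested member of 10 gene lists, with the list median as a black bar and members at an unadjusted p under 0.05 in red. Medians of the SR, U1, hnRNP and export lists lie at 0.24, 0.22, 0.13 and 0.14, those of the cyclic AMP and clock lists at -0.10 and -0.19.

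Ribosomal protein genes also stood slightly higher: 77 of 82 were above 0 (median 0.12), none was called, and 17 had an unadjusted p under 0.05, all higher. Their median was 0.04 in fasted and 0.21 in refed mice, and 54 of the 82 had the same sign in both. At an unadjusted p under 0.05 in each state, 1 was higher in both. Without refed DT mice 13 and 20, 73 were above 0 (median 0.08), with 12 higher and 1 lower at an unadjusted p under 0.05. Rps24 was at 0.25 ± 0.06 (adjusted p = 0.106) and Rpl29 at 0.43 ± 0.12 (0.135). Reads of many ribosomal protein genes are shared with processed pseudogenes, so their values are uncertain. Mitochondrially encoded genes had 7 of 8 above 0 (median 0.39; 0.20 in fasted and 0.59 in refed mice), none called, and they were at their highest share in refed DT mice 13 and 20. Without those mice 5 of the 8 were above 0 (median 0.02).

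Among genes of signalling, a membrane receptor and a G-protein regulator were lower and an immediate-early gene was higher. Gucy2c, the guanylate cyclase receptor for guanylin and uroguanylin that makes cyclic GMP (chr6:136697284-136781742), was at 44.9, 44.3, 49.5, 39.9 and 65.7 CPM in fasted controls and from 19.7 to 32.9 (median 28.3) in fasted DT mice. In refed mice Gucy2c was at 60.2, 86.1, 105, 119.9 and 123 CPM in controls and from 31.99 to 73.5 (median 59.99) in DT mice. The fasted groups did not overlap, and in refed mice control 12 lay among the DT mice. The log2 fold change was -0.83 ± 0.14 (adjusted p = 0.0194), -0.84 in fasted and -0.83 in refed mice, lost only without refed control mouse 22 (adjusted p = 0.0593) among the fits with a mouse left out. Of the 10 tested genes of guanylin and cyclic GMP signalling, Gucy2c was the only one called or at an unadjusted p under 0.05 in the fit of all 22 mice, whereas 2 of 11 were called, both lower, without refed DT mice 13 and 20. In the fit of all mice the next by p was the transporter gene Abcc4 at -0.24 ± 0.13 (adjusted p = 0.506). Rgs16, which speeds the switching off of Gi- and Gq-coupled signals (chr1:153740353-153745468), was at 23.2, 20.5, 14.4, 18.7 and 22.2 CPM in fasted controls and from 8.68 to 15.6 (median 12.3) in fasted DT mice, and at 15.04, 17.9, 13.6, 17.6 and 20.7 in refed controls and from 5.04 to 13.4 (median 10.6) in refed DT mice. The refed groups did not overlap. Rgs16 had a log2 fold change of -0.75 ± 0.15 (adjusted p = 0.0386), called in 9 of 22 fits with a mouse left out. Among 11 RGS genes 6 were above 0, and Rgs11 was at 0.43 ± 0.14 (adjusted p = 0.226) and Rgs7 at -0.55 ± 0.25 (0.410).

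Fosb, an AP-1 subunit induced by calcium and cyclic AMP (chr7:19302696-19310118, with the core in its promoter shown above), was at 5.21, 3.08, 4.44, 4.64 and 5.75 CPM in fasted controls and from 5.95 to 11.1 (median 8.75) in fasted DT mice, and at 3.09, 2.77, 1.81, 2.17 and 2.33 in refed controls and from 2.72 to 9.05 (median 5.32) in refed DT mice. All fasted DT mice were above the fasted controls, and 2 refed DT mice lay in the control range. Fosb had a log2 fold change of 1.00 ± 0.20 (adjusted p = 0.0386), called in 7 of 22 fits with a mouse left out and not without refed DT mice 13 and 20. Of 20 immediate-early genes 13 were above 0 (median 0.10), and the neuronal-type activity factor Npas4 was at 1.16 ± 0.54 (adjusted p = 0.412) and Jun at 0.41 ± 0.20 (0.442). Of 29 genes of cyclic AMP, CREB and CRTC 7 were above 0 (median -0.10), none was called, and 2 had an unadjusted p under 0.05, both lower: the phosphodiesterase gene Pde4b at -0.46 ± 0.12 (adjusted p = 0.122) and the kinase gene Sik2 at -0.38 ± 0.15 (0.325). Of 9 tested receptors for islet peptides none was called, and Gipr, the GIP receptor, was at 0.47 ± 0.15 (adjusted p = 0.209).

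Calb1, the calcium buffer calbindin-D28k (chr4:15881264-15906709), was at 29.02, 19.1, 16.1, 16.1 and 21.1 CPM in fasted controls and from 29.4 to 48.9 (median 36.4) in fasted DT mice, and at 6.72, 21.5, 8.84, 10.2 and 12.5 in refed controls and from 12.2 to 36.1 (median 27.9) in refed DT mice. Fasted groups were apart and refed groups overlapped. Calb1 had a log2 fold change of 0.97 ± 0.20 (adjusted p = 0.0413), called in 3 of 22 fits with a mouse left out. Pick1, a membrane-bending protein of insulin granule formation, averaged 12.6 ± 1.29 CPM (SD, n = 5) in fasted controls against 15.4 ± 0.958 (n = 6) in fasted DT mice, and 13.5 ± 1.14 (n = 5) against 17.3 ± 1.36 (n = 6) after refeeding. Its log2 fold change was 0.33 ± 0.07 (adjusted p = 0.0416, called in 3 of 22). Atp1b3, a β subunit of the sodium pump, was at 71.1 ± 8.76 CPM (SD, n = 5) in fasted controls and 58.6 ± 7.17 (n = 6) in fasted DT mice, and at 79.2 ± 2.63 (n = 5) and 63.1 ± 2.64 (n = 6) after refeeding, where the groups did not overlap. Its log2 fold change was -0.30 ± 0.06 (adjusted p = 0.0413, called in 3 of 22). Without refed DT mice 13 and 20 neither Pick1 nor Atp1b3 was called. Of 30 genes of ion channels and calcium handling none was called, and those at an unadjusted p under 0.05 were Scn9a at 0.52 ± 0.19 and Itpr1 at 0.30 ± 0.13, higher, and Itpr2 at -0.58 ± 0.20 and Kcnma1 at -0.31 ± 0.13, lower.

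**Figure D4:**
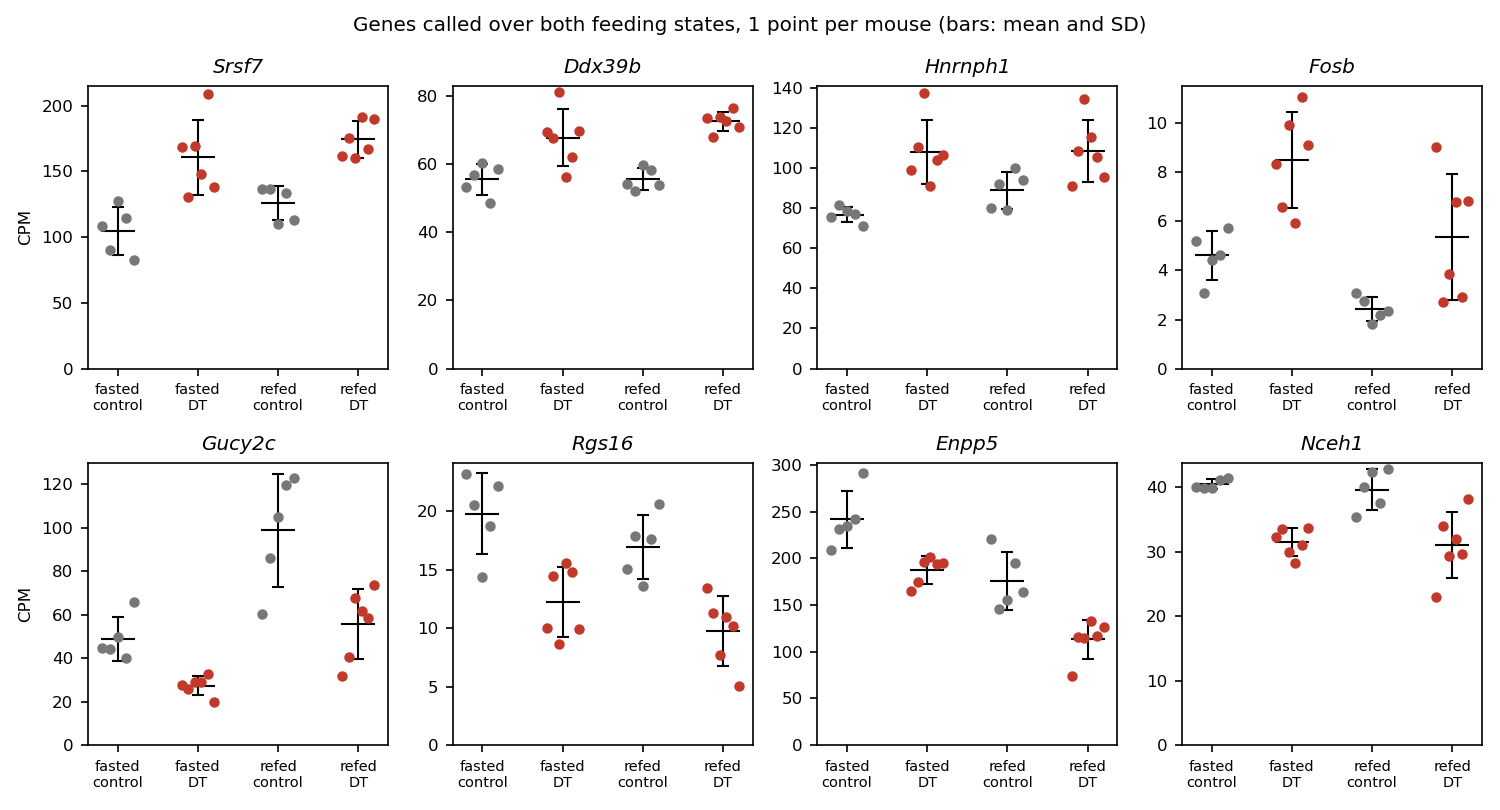
Level in CPM of 8 called genes in each mouse of the 4 groups, with group mean and SD and axes from 0. Srsf7, Ddx39b, Hnrnph1 and Fosb are higher in DT mice in both states and Gucy2c, Rgs16, Enpp5 and Nceh1 are lower; only Srsf7 and Enpp5 among these 8 are without overlap in both.

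Enpp5, Nceh1, Abhd3 and Degs2, which act at the cell surface or on lipids, were lower in DT mice. Enpp5, a membrane ectonucleotide pyrophosphatase family member (chr17:44078802-44086567), was at 209, 232, 235, 242 and 292 CPM in fasted controls and from 165 to 201 (median 195) in fasted DT mice. After refeeding Enpp5 was at 220.3, 146, 155, 195 and 164 CPM in controls and from 73.8 to 133 (median 116) in DT mice, with mouse 13 lowest. DT and control mice did not overlap in either state. The log2 fold change was -0.50 ± 0.09 (adjusted p = 0.0295), called in 15 of 22 fits with a mouse left out. In the list of 17 tested ectonucleotidases and purine receptors 8 were above 0, and Entpd3, an ecto-ATPase of β-cells, was at -0.26 ± 0.09 (adjusted p = 0.226). Nceh1, a neutral cholesterol ester hydrolase (chr3:27183004-27245266), was at 40.01, 39.9, 39.9, 41.1 and 41.5 CPM in fasted controls and from 28.3 to 33.7 (median 31.7) in fasted DT mice, and at 35.4, 39.98, 42.4, 37.6 and 42.9 in refed controls and from 23.03 to 38.2 (median 30.9) in refed DT mice. The fasted controls lay within a narrow range above all fasted DT mice, and refed DT mouse 20 reached the refed controls. Nceh1 had a log2 fold change of -0.36 ± 0.07 (adjusted p = 0.0386, called in 6 of 22). Abhd3, a phospholipase of medium-chain phospholipids, was at 11.3, 11.99, 10.9, 14.2 and 11.2 CPM in fasted controls and from 6.78 to 9.99 (median 7.67) in fasted DT mice, and at 12.2, 14.6, 11.4, 10.6 and 9.91 in refed controls and from 4.11 to 9.76 (median 8.21) in refed DT mice. The groups were apart in both states, by a small gap in refed mice. Abhd3 had a log2 fold change of -0.62 ± 0.13 (adjusted p = 0.0413, called in 2 of 22). Degs2, a sphingolipid hydroxylase and desaturase, averaged 16.4 ± 1.47 CPM (SD, n = 5) against 9.78 ± 2.31 (n = 6) in fasted and 12.96 ± 2.71 (n = 5) against 8.57 ± 1.89 (n = 6) in refed mice, controls first. Its log2 fold change was -0.67 ± 0.13 (adjusted p = 0.0295, called in 10 of 22).

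Camsap3, Rsph9, Slc35f1 and Smim10l1 were also lower in DT mice. Camsap3, which binds microtubule minus ends (chr8:3587237-3609075), was at 19.9, 20.4, 21.02, 20.6 and 15.2 CPM in fasted controls and from 9.76 to 15.02 (median 12.8) in fasted DT mice, and at 14.4, 16.2, 15.6, 13.8 and 16.6 in refed controls and from 9.13 to 14.8 (median 10.5) in refed DT mice. Fasted groups were apart, and refed DT mouse 15 lay in the control range. Camsap3 had a log2 fold change of -0.55 ± 0.10 (adjusted p = 0.0295, called in 17 of 22). Rsph9, a radial spoke protein of motile cilia, averaged 20.4 ± 3.08 CPM (SD, n = 5) in fasted controls and 14.1 ± 2.63 (n = 6) in fasted DT mice, and 13.2 ± 1.47 (n = 5) and 9.74 ± 0.669 (n = 6) after refeeding, when the groups did not overlap. Its log2 fold change was -0.48 ± 0.09 (adjusted p = 0.0295, called in 11 of 22). Slc35f1, a solute carrier family member, was at 4.19, 3.14, 3.02, 8.67 and 2.87 CPM in fasted controls and from 2.01 to 3.45 (median 2.68) in fasted DT mice, and at 3.55, 1.41, 2.59, 2.92 and 2.59 in refed controls and from 0.293 to 0.968 (median 0.733) in refed DT mice. The difference was larger after refeeding (-1.90) than after fasting (-0.70; unadjusted p of the difference 0.0141, adjusted 0.590), and fasted control mouse 4 stood above the others. Slc35f1 had a log2 fold change of -1.28 ± 0.26 (adjusted p = 0.0386), called in 6 of 22 fits with a mouse left out and not called without that mouse or without refed DT mice 13 and 20, among other settings. Smim10l1, a small membrane protein, averaged 71.9 ± 11.01 CPM (SD, n = 5) against 50.3 ± 8.06 (n = 6) in fasted and 64.9 ± 10.5 (n = 5) against 46.4 ± 9.44 (n = 6) in refed mice, controls first (log2 fold change -0.50 ± 0.10, adjusted p = 0.0386, called in 5 of 22 fits with a mouse left out), and overlapped in both states.

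Dlk1, an imprinted gene for a Notch-related membrane protein (chr12:109452485-109463336), was at 1.06, 1.46, 1.46, 1.04 and 0.625 CPM in fasted controls and from 1.49 to 4.81 (median 1.85) in fasted DT mice, and at 1.06, 1.59, 1.30, 1.89 and 0.842 in refed controls and from 2.74 to 10.4 (median 5.25) in refed DT mice. All DT mice were above the controls of their state. The log2 fold change was 1.65 ± 0.30 (adjusted p = 0.0295), 1.12 in fasted and 2.17 in refed mice, called in 16 of 22 fits with a mouse left out. Dlk1 shares its imprinted domain with noncoding RNAs that are made from the other parental chromosome. Of these Rian was at 0.61 ± 0.15 (adjusted p = 0.0971), Mirg at 0.91 ± 0.22 (0.0971) and Meg3, named after its values were seen, at 0.90 ± 0.27 (0.180). Of the 19 imprinted genes tested 11 were above 0, 1 was called, 5 were higher and 3 lower at an unadjusted p under 0.05, and Snrpn was at -0.23 ± 0.06 (0.122). Dlk1 is also in the list of 14 immature and progenitor genes, where 11 were above 0 (median 0.27). At an unadjusted p under 0.05, 4 of the 14 were higher and 1 was lower, which was Aldh1a3, a marker of stressed β-cells, at -2.04 ± 0.66 (adjusted p = 0.223). Without refed DT mice 13 and 20, 7 of the 14 were above 0 (median 0.06).

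The other higher genes have varied roles. Cenps, a kinetochore and DNA repair protein (chr4:149128349-149137600), was at 2.75, 3.55, 2.62, 3.60 and 2.12 CPM in fasted controls and from 4.01 to 7.10 (median 5.46) in fasted DT mice, and at 1.73, 3.27, 3.89, 2.03 and 3.69 in refed controls and from 3.66 to 8.18 (median 6.02) in refed DT mice. The fasted groups were apart, and refed DT mice 13 and 20 reached the controls. Cenps had a log2 fold change of 0.96 ± 0.18 (adjusted p = 0.0295, called in 14 of 22). None of 26 genes of proliferation was called or had an unadjusted p under 0.05. Atg16l2, a homolog of an autophagosome assembly protein, averaged 31.5 ± 3.63 CPM (SD, n = 5) against 46.3 ± 5.74 (n = 6) in fasted and 41.5 ± 2.45 (n = 5) against 48.001 ± 3.90 (n = 6) in refed mice, controls first. Its log2 fold change was 0.38 ± 0.08 (adjusted p = 0.0386, called in 5 of 22 fits with a mouse left out), 0.56 in fasted and 0.21 in refed mice (unadjusted p of the difference 0.0194). Of 34 autophagy genes 8 were above 0, and Atg2b was at -0.42 ± 0.16 (adjusted p = 0.305), Pik3c3 at -0.37 ± 0.14 (0.325) and Optn at -0.41 ± 0.17 (0.338). Cryba2, a crystallin also made in islet cells, averaged 20.1 ± 2.18 CPM (SD, n = 5) against 26.2 ± 1.23 (n = 6) in fasted and 13.1 ± 1.99 (n = 5) against 18.2 ± 3.28 (n = 6) in refed mice (log2 fold change 0.43 ± 0.09, adjusted p = 0.0409, called in 4 of 22 fits with a mouse left out). Cryba2 was also not called without refed DT mice 13 and 20 or with RLE size factors, DESeq2's scaling. Apbb3, an adaptor that binds the amyloid precursor protein, averaged 14.8 ± 2.17 CPM (SD, n = 5) against 22.6 ± 3.04 (n = 6) and 16.99 ± 2.73 (n = 5) against 21.9 ± 3.49 (n = 6) in the same order (log2 fold change 0.49 ± 0.10, adjusted p = 0.0386, called in 4 of 22). The last higher call was a pseudogene model. Exons of Camsap3, Degs2, Apbb3 and Atg16l2 overlap a protein-coding gene on the opposite strand (Xab2, Evl, Slc35a4 and Fchsd2), by 570, 278, 152 and 25 bases in GENCODE, and since the strand setting of the counts is not stated, reads there cannot be assigned to 1 of the pair. Exons of Rgs16 overlap an unnamed antisense model on the opposite strand by 236 bases, where the same limit applies. Pick1 shares 1222 exon bases with an unnamed coding model on its own strand. Dynlt1b, a dynein light chain with near-identical copies, and Rrnad1 came next among genes moving alike in both states, at 1.00 ± 0.22 and 0.39 ± 0.09 (adjusted p = 0.0724 for each).

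**Figure D5:**
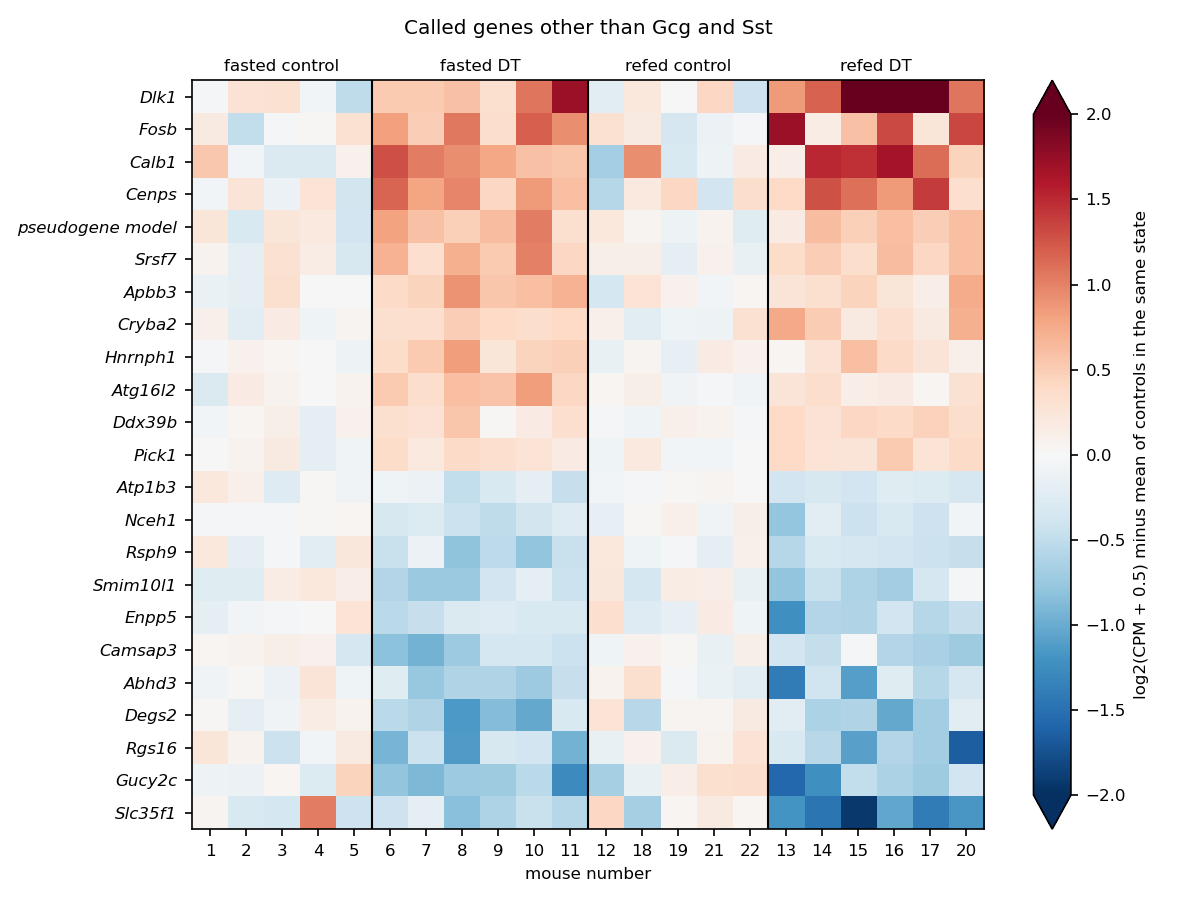
Level of 23 called genes (rows, ordered by common log2 fold change) in each of the 22 mice (columns), as log2(CPM + 0.5) minus the mean of the controls in the same state, with the colour scale ending at -2 and 2. DT columns are red for the 12 higher genes and blue for the 11 lower ones in most mice, and pale where a DT mouse lies near the control mean, as for Ddx39b in fasted DT mouse 9 and Camsap3 in refed DT mouse 15.

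Lists of β-cell function held no called gene. Of 29 β-cell identity genes 18 were above 0 (median 0.03), and 1, the glucose-responsive factor gene Mlxipl, had an unadjusted p under 0.05 (0.68 ± 0.25, adjusted p = 0.294). Of 31 genes of the secretory granule and exocytosis 11 were above 0 (median -0.05), with the peptide-amidating enzyme gene Pam at -0.94 ± 0.27 (adjusted p = 0.171) and Chga at 0.25 ± 0.09 (0.279). Of 28 endoplasmic reticulum chaperone and unfolded protein response genes 11 were above 0, with Sel1l at -0.29 ± 0.08 (0.166) and the stress sensor gene Ern1 at -0.47 ± 0.15 (0.218). Of 17 hypoxia genes 2 were above 0 (median -0.12), with P4ha2 at -0.34 ± 0.10 (0.177), and of 19 clock genes 5 were (median -0.19), with Cry1 at -0.62 ± 0.27 (0.377). Several lists had medians of opposite sign in the states, among them 26 cholesterol synthesis genes at -0.03 in fasted and 0.34 in refed mice, 24 genes of ATF4 and the amino acid response at -0.24 and 0.23, and 28 genes of ER chaperones and the unfolded protein response at 0.14 and -0.15. These differences between states were not tested. Of the 11 genes of toxin entry and action 9 were above 0 and none was called. The mouse toxin receptor homolog Hbegf was at -0.35 ± 0.16 (adjusted p = 0.392) and Eef2, the toxin's target, at 0.10 ± 0.07 (0.640).

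Control libraries held Gcg and Sst reads that DT libraries mostly lacked, so the 11 other lower genes were set against both in the 10 control mice, within feeding state. Over 22 relations Pearson's r ran from -0.762 to 0.707 and Spearman's rho from -0.576 to 0.806, 13 values of r were above 0, and no permutation p passed after adjustment (smallest 0.252 for r and 0.160 for rho). The r at each end, Enpp5 and Camsap3 with Sst, went to -0.200 and -0.121 without the 2 mice farthest in Sst. The highest rho was that of Atp1b3 with Sst (0.806, unadjusted permutation p = 0.00729). Its r was 0.507, and 0.644 without the same 2 mice. With 10 mice even this rho did not pass after adjustment, so weaker relations could not have passed either.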

How the data were processed

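RNA was measured in 22 libraries of sorted β-cells, 1 per mouse. The deposited values are whole-number read counts per gene symbol, on GRCm38.p6; per the submitters' processing notes, the tools used include STAR (version 2.7.2b), HTSeq (0.9.1) and DESeq2 (1.28.1). Counting parameters, strand and annotation release are not given in the sources used here. Groups were taken from the labels. Counts were fitted in R 4.3.3 with edgeR 4.0.16 (filterByExpr by group, TMM scaling, robust quasi-likelihood F test, feeding state and treatment as additive factors), with Benjamini-Hochberg adjustment over 14064 genes and an adjusted p threshold of 0.05. A fit with 1 coefficient per group gave the effect in each state and their difference. SE is the log2 fold change over the root of F. Levels are CPM on TMM-scaled libraries, so a library dominated by insulin can hold very high values. Reads carry no molecular identifiers, and p-values measure the spread between these mice only. Gcg, Sst and Ppy were also compared by exact permutation within states. On simulated data with 14064 genes the common effect recovered 41.8% of genes changed 1.5-fold, 56.7% at 2-fold and 86.4% at 4-fold, with 3 false calls. Alternatives were DESeq2 1.42.0, limma voom (3.58.1), other scalings, filters and models, and mice left out. The gene lists, the tests and the comparison itself were chosen with earlier results of these data known. Named are all called genes except models without a name of their own, Gcg, Sst, Ppy, Ins1 and Ins2, up to 4 members of each described list by smallest p, and the 10 genes in each direction with the smallest larger p of the 2 states. No list was tested as a set. Promoters come from RefSeq and exon overlaps from GENCODE of the same build. Some results are not reported here.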

Additional observations from a re-analysis of the deposited data

Results flagged for a closer look

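In 12 of 112 groups of 5 or 6 mice (28 genes in 4 groups) the highest or lowest mouse stood apart by Dixon's test at 95%, which chance does in about 1 in 20 groups. Refed DT mouse 13 accounted for 5 of them: Ins1 at 309546 CPM, Ins2 at 916688 CPM and Gcg at 26.0 CPM were high, and Enpp5 at 73.8 CPM and the pseudogene model at 6.22 CPM were low. That mouse also had the lowest TMM factor, 0.566. Fasted DT mouse 8 was high for Sst (4.71 CPM) and Ppy (10.6 CPM). Fasted DT mouse 7 was high for Gcg (0.833 CPM) and refed DT mouse 14 for Sst (0.494 CPM), both under every control mouse. Among controls, refed mouse 19 was high for Ppy (126 CPM), fasted mouse 4 was high for Slc35f1 (8.67 CPM), and fasted mouse 5 was low for Camsap3 (15.2 CPM). The part of these mice in the results is given by the fits without them.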

How the results depend on the processing

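No direction was reversed for any called gene under the alternatives run. Without a feeding term 0 genes were higher and 1 lower; DESeq2 called 88 higher and 76 lower, all 25 among them; without a low-count filter 3 were higher and 7 lower over 28085 genes. Lower genes numbered 22 without refed DT mice 13 and 20, and 20 with the acinar covariate. Leaving out 1 mouse gave 1 to 17 higher and 1 to 20 lower genes; Sst and Srsf7 were called in each such fit, and Sst alone in every fit. The total, 25 with all mice, was 5, 16, 7 and 7 without fasted control mice 1, 2, 4 and 5, and 5, 17, 5, 12, 11 and 10 without fasted DT mice 6 to 11. It was 4, 11, 10 and 2 without refed control mice 12, 19, 21 and 22, and 15, 15, 7 and 15 without refed DT mice 14, 15, 16 and 17. Gcg was not called by limma voom. At an unadjusted p of 0.01 in each state 25 genes moved alike. Other scalings, limma voom, the stricter filter and the average of within-state effects kept 22 to 25 of the 25. The cause of these changes was not tested. No paired analysis was possible because each mouse number occurs once. The list counts and the hormone tests without single mice were added after seeing the data; Gcg, Sst and Ppy kept their direction and call in all of them.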
